A study of Homo sapiens with 4 samples.

Results

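The genes described here were 7 cadherins (CDH1, CDH2, CDH3, CDH4, CDH6, CDH11 and CDH13) and 3 catenins (CTNNA1, CTNNB1 and CTNND1), chosen by their symbols. Each matched 1 of the 60623 gene rows, so all 10 were found. They were measured by RNA-seq in BICR10 cells, a line from a human head and neck cancer, transduced with a lentiviral control hairpin (shControl, 2 libraries) or with a hairpin against the histone reader YEATS2 (shYEATS2, 2 libraries). All cells went through puromycin selection, and no other treatment is named. A pair of YEATS2 hairpins was used in the study, and which of them each shYEATS2 library carried is not given in the sources used here. Whether the 2 libraries of a group came from separate cultures is not given either, so p-values measure the spread between these libraries, which may be technical.

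Classical cadherins are membrane proteins that bind their like on the neighbouring cell through calcium-dependent extracellular repeats. Their cytoplasmic tails hold p120-catenin (CTNND1), which keeps the cadherin at the surface, and β-catenin (CTNNB1), which is linked to actin through α-catenin (CTNNA1). β-catenin that is not bound to a cadherin or destroyed can enter the nucleus and act with TCF/LEF factors in WNT signalling. A lower E-cadherin (CDH1) with a higher N-cadherin (CDH2) is a textbook sign of epithelial-to-mesenchymal transition (EMT), the process the study set out to follow. CDH2, CDH1, CDH3 and CDH4 are type I cadherins, CDH6 and CDH11 are type II cadherins, and CDH13 lacks the transmembrane and cytoplasmic parts and is held by a lipid anchor.

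The counts on genes ranged from 39824898 to 47297970 in shControl and from 11334133 to 24072396 in shYEATS2, and this lower depth cannot be told apart from the knockdown. YEATS2 itself was at 66.1 and 66.7 CPM (counts scaled to library size with edgeR's TMM factors) in shControl and at 29.2 and 29.1 CPM in shYEATS2, a fitted change of −1.19 ± 0.08 (SE) on the log2 scale (adjusted p = 3.6e-21, edgeR's quasi-likelihood test). The label of a head and neck cancer line was compared with marker genes, some of which went with it and others against it. Of 15 epithelial markers, KRT8, KRT18 and SFN were well expressed, at no less than 72.3 CPM in any library. In shControl, KRT6A was at 55.0 and 58.2 CPM, KRT5 at 16.4 and 14.95 CPM and DSP at 5.56 and 5.90 CPM. In contrast, KRT19 and GRHL2 had 0 counts in all 4 libraries, and EPCAM, TP63, ESRP1 and CDH1 were below 3 CPM in each. Collagen genes from a list of fibroblast markers were abundant, with COL1A2 at 2623 and 2609 CPM in shControl. Other genes of the same list were expressed too. In shControl, LUM, DCN, TWIST1 and POSTN had means of 455, 321, 293 and 247 CPM. The means of PRRX1, PDGFRB and FAP were 82.1, 17.7 and 13.3 CPM. THY1 and PDGFRA of this list were at no more than 0.287 and 3.0 CPM in any library. The identity of the line was not tested, and the levels below are those of the libraries as labelled. In bulk RNA, fewer cells of a type and less RNA per cell cannot be told apart.

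Among the 7 cadherins, N-cadherin held the largest share of the mRNA. Levels were compared between genes per kilobase, as TPM (counts divided by the exon length of the gene and scaled to a fixed sum per library). In shControl, CDH2 made up 41.3% ± 2.13 of the summed TPM of the 7 cadherins, CDH13 25.7% ± 0.821, CDH3 (P-cadherin) 16.5% ± 0.513 and CDH11 10.6% ± 0.515 (SD, n = 2 for each). CDH1 made up 0.232% ± 0.0220 (SD, n = 2), the least of the 7. In shYEATS2, the share of CDH2 was 63.7% ± 2.99, and those of CDH3 and CDH11 were 2.91% ± 0.809 and 1.62% ± 0.0702 (SD, n = 2 for each). CDH13 held 24.0% ± 1.37, close to its share in shControl. The shares rest on length-scaled counts and carry no test, and the exact permutation test of 2 libraries against 2 cannot give a two-sided p below 0.33.

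**Figure D1:**
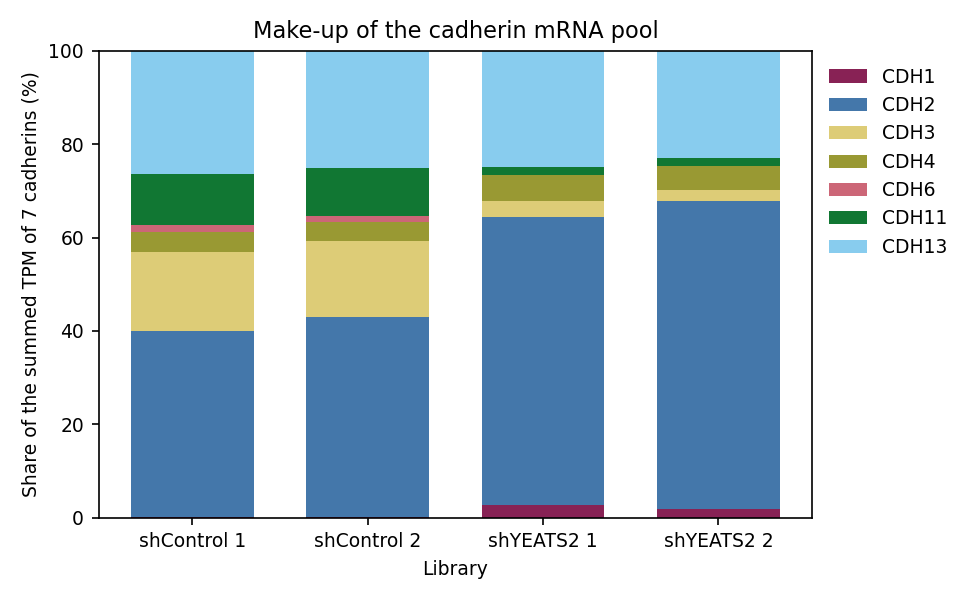
Stacked bars give the percent of the summed TPM of 7 cadherins held by each gene in each of the 4 libraries. CDH2 takes 39.8% and 42.8% of the bars of shControl and 61.6% and 65.9% of those of shYEATS2, while the bands of CDH3 and CDH11 shrink.

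The order of the levels per kilobase in shControl was CTNNA1, CTNNB1, CDH2, CTNND1, CDH13, CDH3, CDH11, CDH4, CDH6 and CDH1, from a mean of 139.5 TPM down to 0.166 TPM. No neighbours in this order overlapped between libraries. In shYEATS2 the first 5 places were unchanged, followed by CDH4, CDH3, CDH1, CDH11 and CDH6. Only CDH3 and CDH1 overlapped, with 1.40 to 2.10 TPM for CDH3 and 1.18 to 1.66 TPM for CDH1. The order of CDH1 and CDH11 in shYEATS2 depends on the gene length used. With the longest transcript as the length, CDH11 held 1.65% and 1.72% of the cadherin sum and CDH1 1.88% and 1.34%, so they overlapped. The summed TPM of the 3 catenins was 3.97 and 3.96 times that of the 7 cadherins in shControl, and 5.40 and 5.11 times in shYEATS2. The level of CTNND1 is less sure than the others. In GENCODE release 44, another protein-coding gene on the same strand (ENSG00000288534) covers 39.1% of the exon bases of CTNND1, but this identifier is not among the rows of the deposited files. The files do list the readthrough gene TMX2-CTNND1, at 0 counts in all 4 libraries, and ENSG00000254732, which covers 12.7% of the exon bases on the same strand, at 9, 6, 1 and 0 counts. HTSeq, the counting tool, drops read pairs that lie on more than 1 gene, so pairs of CTNND1 may be missing if the authors' annotation shared these exons.

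Of the 10 genes, 4 were higher and 5 were lower in shYEATS2 when edgeR's test over 17058 genes was read at an adjusted p of 0.05, and CDH4 was not called. Over all tested genes 46.2% were called, 22.6% higher and 23.6% lower. With library totals as the only scaling, the 10 genes still gave 4 higher and 5 lower, but the split of all genes moved from 3857 higher and 4019 lower to 5441 higher and 2567 lower. By DESeq2 only 6 of the 10 were called (CDH1, CDH3, CDH6, CDH11, CDH13 and CTNNB1), against 30.5% of all genes with an adjusted p. The changes fell into large and small ones. CDH1, CDH3, CDH6 and CDH11 were called with a change of at least 4-fold, as were 2.75% of all tested genes, and the other 6 changed by less than 1.5-fold. The libraries of the 2 groups did not overlap for any of the 10, which was also the case for 71.6% of all tested genes. Both shYEATS2 libraries were above shControl for 4 of the 10 (35.3% of all genes) and below for 6 (36.3%). CDH6 passed the filter on low counts only through the shControl libraries and CDH1 mainly through the shYEATS2 libraries, so these counts give no support beyond each gene's own values.

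**Figure D2:**
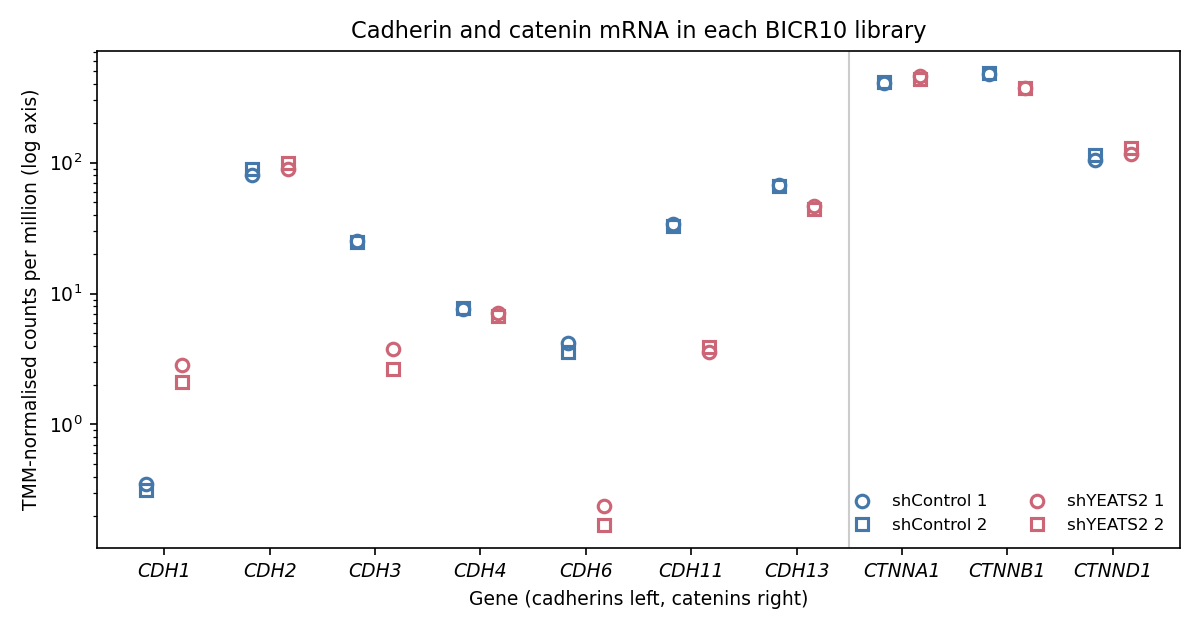
Points give the TMM-normalised CPM of each gene in each of the 4 libraries on a log axis, with circles for library 1 and squares for library 2. The shYEATS2 points of CDH3, CDH6 and CDH11 lie far below those of shControl and the points of CDH1 far above, while the points of CDH2, CDH4 and the catenins lie close together.

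E-cadherin, the cadherin of epithelial cells, went up from a trace level. CDH1 (ENSG00000039068) had 16 and 12 counts in shControl and 72 and 25 counts in shYEATS2, although the latter libraries were shallower. The normalised levels were 0.353 and 0.318 CPM against 2.84 and 2.12 CPM, so both shYEATS2 libraries were above both shControl libraries. The change was 2.91 ± 0.36 (SE) on the log2 scale (adjusted p = 4.6e-10, edgeR). The ratio of the summed counts was 7.76, with an exact 95% interval of 5.05 to 12.3 that covers counting error only. In shYEATS2, CDH1 was at 1.42 ± 0.336 TPM (SD, n = 2), and its share of the cadherin sum was 2.37% ± 0.540, against 0.232% in shControl. An antisense transcript (ENSG00000260798) that shares 5.71% of its exon bases had 0 counts in every library.

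P-cadherin, an adhesion protein of basal epithelial cells, went the other way. CDH3 (ENSG00000062038) was at 25.2 and 24.9 CPM in shControl and at 3.79 and 2.63 CPM in shYEATS2. Both shYEATS2 libraries were far below, with a change of −2.88 ± 0.14 (SE) on the log2 scale (adjusted p = 1.1e-28, edgeR). CDH3 and CDH1 are next to each other on the plus strand of chromosome 16 in GRCh38, CDH3 from 68636189 to 68727468 and CDH1 from 68737292 to 68835537, with a gap of 9824 bases. Their outer neighbours, ZFP90 before CDH3 and TANGO6 after CDH1, changed little. ZFP90 had a log2 fold change of −0.25 (adjusted p = 0.037) and TANGO6 one of −0.06 (adjusted p = 0.656, both edgeR). The antisense gene CDH3-AS1, which covers 8.40% of the CDH3 exon bases, had at most 16 counts.

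CDH11, a cadherin of mesenchymal cells and osteoblasts, and CDH6, known from kidney and neural crest, were the type II cadherins among the 10, and both fell. CDH11 (ENSG00000140937), on chromosome 16 (64943753 to 65126112, minus strand), had 1547 and 1239 counts in shControl and 90 and 46 in shYEATS2. Its levels were 34.1 and 32.8 CPM against 3.55 and 3.90 CPM, and 11.0% of the control level remained by the fitted fold change. The change was −3.19 ± 0.13 (SE) on the log2 scale (adjusted p = 7.5e-33, edgeR). CDH6 (ENSG00000113361), on the plus strand of chromosome 5 from 31193686 to 31329146, had 191 and 134 counts in shControl and 6 and 2 in shYEATS2. This was the largest fall of the 10, at −4.15 ± 0.37 (SE) on the log2 scale (adjusted p = 2.8e-15, edgeR). CDH6 passed the filter on low counts only through the shControl libraries, so the filter fixed its direction in this fit. Without that filter the log2 fold change was −4.20. With so few counts the size is not well fixed. By the summed counts of 325 and 8, shControl was 18.1-fold higher, with an exact 95% interval of 9.10 to 42.4 for counting error.

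The fibroblast marker list does not hold CDH11. Of its 12 genes, which include TWIST1 from the list of CDH1 regulators, 11 were tested, 10 were lower and 0 higher. The shares to set beside this and the other marker lists were 22.6% higher and 23.6% lower over all tested genes. Their summed level was 7905 and 7853 CPM in shControl and 2640 and 2509 CPM in shYEATS2. The list held no gene at 0 counts in every library, and THY1 was the lowest, at no more than 0.287 CPM. Of the epithelial markers, 11 were tested, 7 were lower and 2 higher, CDH1 itself and CLDN1, and the summed level of the list was 588 to 590 CPM in shControl and 334 to 359 CPM in shYEATS2. The keratin gene KRT6A fell most, from 55.0 and 58.2 CPM to 1.38 and 2.21 CPM (log2 fold change −5.09), and KRT8 and KRT18 had log2 fold changes of −1.16 and −0.55. The other lower markers, named after their values were seen, were KRT5 (−3.79), KRT14 (−2.32), the desmosomal gene DSP (−1.97) and EPCAM (−1.07). DESeq2 did not call EPCAM (adjusted p = 0.297). KRT14 passed the filter on low counts only through the shControl libraries, so the filter fixed its direction. Of 8 endothelial markers 3 were tested, with 1 higher and 1 lower. The higher gene, TEK, reached 0.594 CPM at most and passed the filter only through the shYEATS2 libraries, which fixed its direction. TEK was not called by DESeq2 (adjusted p = 0.211). CDH5, the cadherin of endothelial cells, had 1 count in 1 shControl library and 0 in the rest. The endothelial genes summed to 36.0 and 36.9 CPM in shControl and to 19.2 and 20.2 CPM in shYEATS2, nearly all of it KDR, and TIE1 and CLDN5 were at 0 in every library. For 6 leukocyte markers the sum was no more than 1.95 CPM in any library, with CD3E and CD68 at 0 throughout. The 1 tested gene, CD14, was lower by edgeR but not called by DESeq2 (adjusted p = 0.201). Of 7 markers of smooth muscle and pericytes 5 were tested, 2 were higher (NOTCH3 and RGS5) and 0 lower. RGS5 was not called by DESeq2 (adjusted p = 0.054). The sums were 209 to 222 CPM in shControl and 278 to 330 CPM in shYEATS2, nearly all of it NOTCH3. ACTA2 was at no more than 2.97 CPM in any library, and MYH11, CNN1 and DES were at no more than 0.671 CPM. The part of these markers in the results on cadherins was not tested.

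CDH13, or T-cadherin, a lipid-anchored receptor for adiponectin and low-density lipoprotein, fell moderately. Its levels were 68.0 and 66.9 CPM in shControl and 46.7 and 44.6 CPM in shYEATS2, and no library had fewer than 525 counts. The change was −0.56 ± 0.07 (SE) on the log2 scale (adjusted p = 1.5e-09, edgeR), or 67.9% of the control level. CDH13 (ENSG00000140945) spans 1173676 bases on the plus strand of chromosome 16, from 82626965 to 83800640. The antisense gene CDH13-AS2 covers 21.4% of the CDH13 exon bases, and the strand setting of the counting is not given. This gene had 14 to 33 counts.

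**Figure D3:**
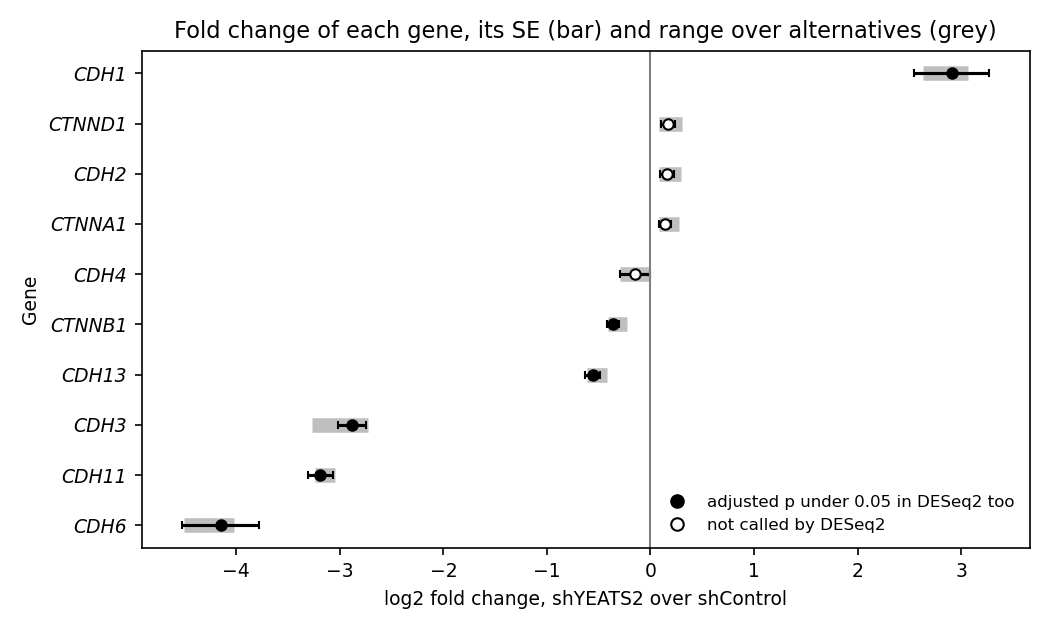
Points give the log2 fold change of each gene with its standard error from edgeR, filled where DESeq2 also called the gene, and grey bands span the values under all alternatives. CDH6, CDH11, CDH3 and CDH1 stand far from 0, whereas CDH2, CTNNA1 and CTNND1 lie between 0.14 and 0.17.

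N-cadherin mRNA changed little and upwards. CDH2 (ENSG00000170558), on chromosome 18 (27932879 to 28177946, minus strand), was at 80.1 and 88.7 CPM in shControl and at 90.0 and 99.4 CPM in shYEATS2. The highest shControl library and the lowest shYEATS2 library were almost level. The change was 0.16 ± 0.07 (SE) on the log2 scale (adjusted p = 0.0497, edgeR), which did not pass with DESeq2 (adjusted p = 0.198). The adjusted p was 0.573 without shControl library 1, 0.066 without shControl library 2 and 0.222 without shYEATS2 library 2, so the call rests on single libraries. On the TPM scale of the shares, CDH2 had a mean of 29.5 in shControl and 38.2 in shYEATS2, while the sum of the 7 cadherins was 71.4 and 59.9. TPM is scaled to a fixed sum without TMM factors, so changes in TPM, here and below, differ from the fitted fold changes. CDH4 (ENSG00000179242, chromosome 20, 61252261 to 61940617, plus strand), or R-cadherin, a close relative of N-cadherin, was at 7.65 and 7.70 CPM in shControl and 7.07 and 6.70 CPM in shYEATS2. The fitted value was −0.15 ± 0.14 (SE) on the log2 scale (adjusted p = 0.418, edgeR), so a difference was not detected.

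The catenins changed by less than 1.3-fold, and not in 1 direction. CTNNB1 (ENSG00000168036), on the plus strand of chromosome 3 from 41194741 to 41260096, fell from 473 and 482 CPM in shControl to 374 and 370 CPM in shYEATS2. The change was −0.36 ± 0.06 (SE) on the log2 scale (adjusted p = 3.2e-07, edgeR), and DESeq2 called it too (adjusted p = 4.7e-10). CTNNA1 (ENSG00000044115), on the plus strand of chromosome 5 from 138610967 to 138935034, was at 406 and 415 CPM in shControl and 463 and 440 CPM in shYEATS2, 0.14 ± 0.06 (SE) on the log2 scale (adjusted p = 0.045, edgeR). CTNND1 (ENSG00000198561), on the plus strand of chromosome 11 from 57753243 to 57819546, was at 104.5 and 114.6 CPM against 116.3 and 130.5 CPM, 0.17 ± 0.07 (SE) on the log2 scale (adjusted p = 0.034, edgeR). Neither of these rises was called by DESeq2, with adjusted p of 0.086 and 0.144. For CTNNA1 the adjusted p was 0.319 without shControl library 1, 0.195 without shControl library 2 and 0.224 without shYEATS2 library 1. For CTNND1 it was 0.486 without shControl library 1, 0.055 without shControl library 2 and 0.237 without shYEATS2 library 2.

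The promoter sequences of CDH2, CTNNA1 and CTNNB1, the genes with the highest TPM of the 10 (apart from the uncertain level of CTNND1), are shown because CDH2 and CTNNA1 were slightly higher and CTNNB1 lower. They are the 250 bases before the first listed start of each gene in the RefSeq promoter table used here (GRCh38.p14), in which CDH2, CDH4, CTNNA1 and CTNNB1 were matched. Capitals mark the GC box GGGCGG or its complement CCGCCC, a motif of SP and KLF factors, searched on both strands with overlapping matches counted. The windows are chr18:28177131-28177380 (minus strand) for CDH2, chr5:138753175-138753424 (plus strand) for CTNNA1 and chr3:41199255-41199504 (plus strand) for CTNNB1.
CDH2: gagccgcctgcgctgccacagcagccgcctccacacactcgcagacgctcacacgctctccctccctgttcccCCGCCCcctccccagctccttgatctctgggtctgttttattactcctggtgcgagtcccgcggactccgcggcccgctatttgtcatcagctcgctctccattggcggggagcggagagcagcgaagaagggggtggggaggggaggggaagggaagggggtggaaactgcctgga
CTNNA1: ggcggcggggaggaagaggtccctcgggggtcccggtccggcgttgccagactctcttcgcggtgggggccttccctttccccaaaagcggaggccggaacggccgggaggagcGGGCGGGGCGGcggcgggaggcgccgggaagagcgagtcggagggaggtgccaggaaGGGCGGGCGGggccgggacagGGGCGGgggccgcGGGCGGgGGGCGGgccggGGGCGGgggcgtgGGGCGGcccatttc
CTNNB1: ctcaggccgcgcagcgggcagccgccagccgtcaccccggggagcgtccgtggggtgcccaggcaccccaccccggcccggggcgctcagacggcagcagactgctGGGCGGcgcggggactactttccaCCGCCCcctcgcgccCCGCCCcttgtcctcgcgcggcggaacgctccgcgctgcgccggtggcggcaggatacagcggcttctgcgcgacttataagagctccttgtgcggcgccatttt
The window held 1 GC box for CDH2, 9 for CTNNA1 and 3 for CTNNB1, and at least 1 was present in 42.6% of all 35116 promoter windows of this length. At the other listed starts, CDH2 had 0 GC boxes and CTNNA1 had 4, 0 and 0. The rises of CDH2 and CTNNA1 were called by edgeR but not by DESeq2. The E-box CAGGTG or CACCTG, to which Snail and ZEB factors bind, was in none of the 3 windows and in 17.5% of all windows. These matches are letters in a window and not binding sites.

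By the pattern over the 4 libraries, the genes of at least 10 CPM nearest to CDH11 were SULF1, SULF2 and CHI3L1, at distances of 0.20 to 0.31 on the centred log2 CPM scale among 9365 genes. The nearest to CDH2 were KIAA1217, LINC01139 and CTNND1, at distances of 0.01 to 0.02. Those nearest to CDH1 were STC2, ATF3 and UNC5B, at 0.30 to 0.35. With 4 libraries in 2 groups, these distances mostly restate the fold change and carry no test.

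Other classical and related cadherins were mostly silent. Of 15 listed, 7 had enough counts for a test, and 2 were higher and 2 lower, beside 22.6% higher and 23.6% lower over all tested genes. CDH18, a type II cadherin known from the nervous system, was the most abundant, at 24.0 and 25.6 CPM in shControl and 12.2 and 12.7 CPM in shYEATS2, −0.995 ± 0.10 (SE) on the log2 scale (adjusted p = 9.3e-13, edgeR). CDH24 was at 8.64 and 8.81 CPM against 7.03 and 6.36 CPM (log2 fold change −0.36, adjusted p = 0.027, edgeR), and DESeq2 did not call it (adjusted p = 0.208). Per kilobase, CDH18 had a mean of 11.5 TPM in shControl and 6.67 TPM in shYEATS2, and CDH24 of 6.99 and 6.20 TPM. CDH3 was at 11.8 and 1.75 TPM, and neither CDH18 nor CDH24 enters the shares of the 7 cadherins. The 2 higher genes, CDH12 and CDH15, reached at most 2.29 CPM in any library, with log2 fold changes of 1.28 and 0.86. DESeq2 called CDH12 (adjusted p = 0.041) but not CDH15 (adjusted p = 0.28). CDH10, at 2.23 and 2.36 CPM against 3.0 and 3.48 CPM, did not pass the test (adjusted p = 0.082, edgeR).

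Among the other catenins and their armadillo relatives, 6 of 8 were tested, 4 were higher and 0 lower. Over all tested genes, 22.6% were higher and 23.6% lower. Plakoglobin (JUP), which can take the place of β-catenin in adherens junctions and also builds desmosomes, rose from 5.95 and 6.06 CPM to 23.7 and 18.5 CPM. The fitted value was 1.84 ± 0.12 (SE) on the log2 scale (adjusted p = 3.8e-21, edgeR), and its mean level went from 3.65 to 14.8 TPM, still below that of CTNNB1 at 109.7 TPM in shYEATS2. CTNNAL1 (α-catulin) rose from 69.3 and 69.5 CPM to 115.5 and 126.3 CPM and PKP4 (p0071) from 64.3 and 63.9 CPM to 90.1 and 94.6 CPM, with log2 fold changes of 0.79 and 0.52. The fourth, CTNND2, reached 1.10 CPM at most and passed the filter on low counts only through the shYEATS2 libraries, so the filter fixed its direction. Of the scaffold proteins and nectins of the adherens junction, 16 of 18 were tested, with 7 higher, 4 lower and a median log2 fold change of 0.14, against −0.01 for all tested genes. LIMA1 (EPLIN), which links α-catenin to actin, rose most, from 53.1 and 53.0 CPM to 121.7 and 125.3 CPM, 1.22 ± 0.07 (SE) on the log2 scale (adjusted p = 3.1e-25, edgeR). AJUBA, NECTIN3 and VASP rose by 0.92, 0.47 and 0.42 on the log2 scale. MAGI1, NECTIN1, ACTN4 and ZYX had log2 fold changes of −0.60, −0.37, −0.32 and −0.23, and NECTIN1 was not called by DESeq2 (adjusted p = 0.11).

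**Figure D4:**
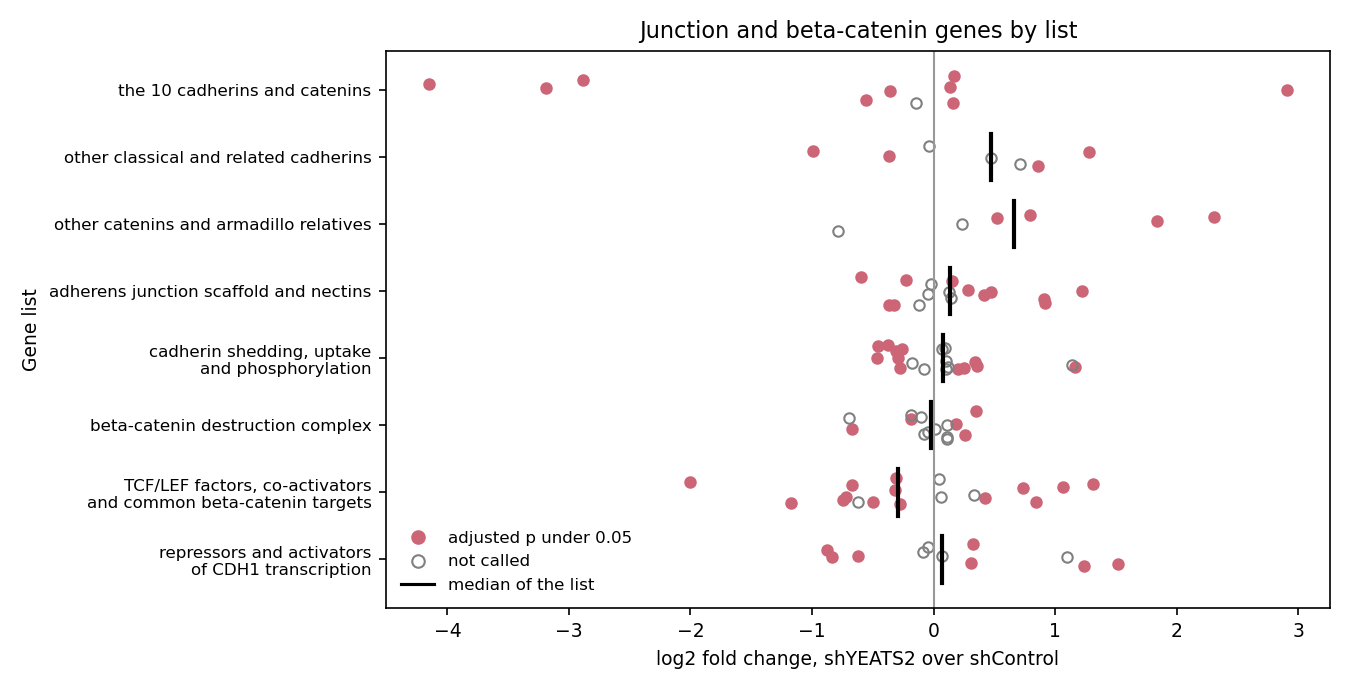
Each point is the log2 fold change of 1 tested gene, filled where the adjusted p from edgeR was under 0.05, in rows by gene list, with a black line at the median of each list but the first. The 10 cadherins and catenins run from −4.15 for CDH6 to 2.91 for CDH1, and the other catenins hold no filled point below 0.

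Of 21 genes for the shedding, uptake and phosphorylation of cadherins, 20 were tested, with 5 higher, 7 lower and a median log2 fold change of 0.08. Over all tested genes, 22.6% were higher and 23.6% lower. PTPRF (LAR), a receptor phosphatase found at adherens junctions, rose from 34.9 and 35.6 CPM to 83.1 and 73.6 CPM (log2 fold change 1.16, standard error 0.07). PTPN1 and CBLL1 (Hakai, a ubiquitin ligase for E-cadherin) had log2 fold changes of 0.35 and 0.25, and CBLL1 was not called by DESeq2 (adjusted p = 0.060). ADAM10, the protease that sheds the outer part of E- and N-cadherin, fell from 289.8 and 298.4 CPM to 216.1 and 239.4 CPM (log2 fold change −0.37, standard error 0.06). PIP5K1C, PTPRM and NUMBL had log2 fold changes of −0.46, −0.46 and −0.31.

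For the nuclear side of β-catenin, the destruction complex and the TCF/LEF list were examined. Of the 14 genes of the destruction complex, 3 were higher (AXIN1, GSK3B and APC, log2 fold changes of 0.35, 0.26 and 0.18), 2 were lower (AXIN2 and CSNK1A1, −0.67 and −0.19) and 9 were not called. APC was not called by DESeq2 (adjusted p = 0.113). The shares to set beside this list and the next were 22.6% higher and 23.6% lower over all tested genes. Of 21 TCF/LEF factors, co-activators and common targets, 18 were tested, with 5 higher, 9 lower and a median of −0.29. Several genes of the list fell. AXIN2, a negative feedback target of WNT signalling, went from 13.9 and 13.7 CPM to 8.61 and 8.74 CPM, LEF1 from 15.4 and 16.5 CPM to 9.87 and 9.33 CPM (log2 fold change −0.72), and the co-activator BCL9L from 178.7 and 177.2 CPM to 132.9 and 117.9 CPM (log2 fold change −0.50). TCF7 had a log2 fold change of −0.31. The largest fall of the list, NOTUM, a secreted WNT inhibitor named after its values were seen, was from 5.75 and 5.19 CPM to 1.46 and 1.19 CPM (−2.0 ± 0.23 (SE) on the log2 scale). In the other direction, NKD2, MYC, CCND1 and CD44 rose, with log2 fold changes of 1.31, 1.07, 0.74 and 0.42. The remaining higher gene, RNF43, reached 2.53 CPM at most. Its log2 fold change was 0.84 (adjusted p = 0.011, edgeR), and DESeq2 did not call it.

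Regulators of CDH1 transcription were mixed as well. Of 18 listed, 11 were tested, with 4 higher and 3 lower and a median of 0.07. The repressor TWIST1 fell from 275.3 and 310.2 CPM to 163.3 and 165.5 CPM (log2 fold change −0.83, standard error 0.06), TCF4 had a log2 fold change of −0.62, and SNAI1, at 2.65 and 2.99 CPM in shControl, one of −0.88. SNAI1 was not called by DESeq2 (adjusted p = 0.11). In contrast, the repressor ZEB1 rose from 69.5 and 69.3 CPM to 82.8 and 92.4 CPM (log2 fold change 0.33, standard error 0.07) and TCF3 had 0.31, while SNAI2 (log2 fold change 0.07), ZEB2 (−0.08) and TWIST2 (−0.05) were not called. KLF4, an activator of CDH1 in epithelial cells, rose from 20.1 and 19.6 CPM to 60.2 and 52.7 CPM, the largest rise of the list at 1.52 on the log2 scale (standard error 0.08, adjusted p = 2.6e-25, edgeR). The fourth higher gene, GRHL1, went from 0.353 and 0.344 CPM to 0.868 and 0.764 CPM. Its log2 fold change was 1.24 (adjusted p = 0.031, edgeR), and DESeq2 did not call it. FOXA1, at no more than 0.829 CPM, had a log2 fold change of 1.10 and was not called. GRHL2, the epithelial activator, had 0 counts in every library, and OVOL1, OVOL2, ESRP1 and ESRP2 were at 0.221 CPM or less. Over all junction and β-catenin lists, including a list not described here, 102 genes other than the 10 were tested, of which 36 were higher, 29 lower and 37 not called, beside 22.6% higher and 23.6% lower over all tested genes. With library totals as the only scaling the split was 49 higher and 16 lower.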

How the data were processed

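The authors deposited whole-number counts of read pairs per Ensembl gene, without normalization, from STAR alignments to GRCh38 counted with HTSeq; the STAR version, annotation release and strand setting are not given in the sources used here. Tallies naming no gene were left out (7.64% to 8.57% without a feature, 4.31% to 4.61% ambiguous, 3.25% to 3.53% not unique). Genes kept by filterByExpr (17058) were scaled by TMM and compared between shControl and shYEATS2 with glmQLFit and glmQLFTest (robust) of edgeR 4.0.16 in R 4.3.3, with Benjamini-Hochberg adjustment over all of them and a threshold of 0.05. DESeq2 1.42.0, the study's tool, and limma-voom (limma 3.58.1) were alternatives, beside other scalings, filters, thinning, a replicate block and each library left out. The scripts were tested on simulated data. Exon lengths and positions came from GENCODE release 44 (60295 of 60623 identifiers matched). The 10 genes, the lists and the rules were chosen with earlier results of these data known. Beyond the 10, up to 4 rises and 4 falls per list were named, called, at a mean of at least 10 CPM and with no overlap between groups, besides cadherins of at least 1 CPM and regulators of CDH1; of 126 listed genes, 125 had a row. A gene and a gene list that fell under these rules are not reported here.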

Additional observations from a re-analysis of the deposited data

How the results depend on the processing

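CDH1, CDH3, CDH6, CDH11, CDH13 and CTNNB1 kept their direction and call under every alternative run, apart from CDH6, which had no value with at least 10 counts in every library. The log2 fold changes ranged from 2.63 to 3.06 for CDH1, from −3.26 to −2.73 for CDH3, from −4.50 to −4.02 for CDH6, from −3.24 to −3.05 for CDH11, from −0.61 to −0.42 for CDH13 and from −0.41 to −0.23 for CTNNB1. The calls of CDH2, CTNNA1 and CTNND1 were lost in 6, 5 and 5 of 13 alternatives, with log2 fold changes from 0.08 to 0.30. The number of the 10 genes called higher was thus 1 with DESeq2, 1 without a filter on low counts and 1 at an adjusted p under 0.01, and 1 to 3 when a library was left out, where the lone library of a group is assumed to vary like the other group. The cause was not tested. With library totals alone, the median over all tested genes moved from −0.01 to 0.13 on the log2 scale, 16 of the other junction and β-catenin genes and 2567 of all genes were lower, and CDH2, CTNNA1 and CTNND1 had log2 fold changes of 0.29, 0.27 and 0.30. DESeq2 called 2392 genes higher. With the longest transcript as the gene length, CDH2 held 50.3% of the cadherin sum in shControl and 73.2% in shYEATS2. Libraries of the same number were not treated as pairs in the main fit, and the deviations of shControl and shYEATS2 had a correlation of −0.018. This value cannot tell whether libraries of the same number shared a culture or a batch. With the replicate block 4 of the 10 genes were higher and 5 lower, beside 3870 higher and 4142 lower over all tested genes. Depth limits CDH1 and CDH6, whose counts were 28 and 8 over the libraries of 1 group.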
